A study of Mus musculus with 12 samples.

Results

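Expression of 7 transcriptional regulators of hair cells and the sensory epithelium, Pou4f3, Gfi1, Atoh1, Lhx3, Barhl1, Sox2 and Eya1, was examined along the mouse cochlea, in its apical, middle and basal turns. The genes were selected by name, and every non-control probe carrying 1 of these names was used, which gave 35 of the 165984 probes on the array and 7 of the 19505 genes. Labels describe male C57BL/6 mice aged 6 weeks, with no transgene or treatment named, and each turn was measured on 4 single-color exon arrays from 25 ng of total RNA. By the study's methods the cochleae came from 4 mice and were cut into the turns, so the 3 turns share animals. The labels number the samples without saying which share a mouse, and the tests below treat the 12 samples as unpaired. A dissected turn held, by the labels, the organ of Corti together with spiral ligament, spiral prominence, stria vascularis and the rest of the lateral wall, and the methods add spiral ganglion neurons, so each array reads a mixture of cell types. The 4 arrays of each turn shared 1 slide and no slide held a second turn, so that slide and turn cannot be told apart in any comparison below.

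Hair cells are the mechanosensory receptors of the organ of Corti, and they sit on and between supporting cells that descend from the same progenitors. In the developing ear, Eya1 acts as a transcriptional coactivator in the otic placode and Sox2 marks the prosensory domain from which both cell types arise. Atoh1, a basic helix-loop-helix factor, starts hair cell differentiation, and the POU domain factor Pou4f3, the zinc finger repressor Gfi1 and the homeodomain factors Barhl1 and Lhx3 act in hair cells after it and are needed for their maturation or survival. In the mature organ of Corti, Sox2 is known from supporting cells and, in the nerve, from glia.

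Signal below is the processed spot intensity after scaling each array to its 75th percentile, averaged over the probes of a gene on the log2 scale and given in arbitrary units. On each array 77.4% to 81.4% of spots exceeded background clearly, no gene spot was saturated, and the median standard deviation (SD) of a gene among the 4 arrays of a turn ran from 0.11 to 0.13 log2 units. A probe responds with its own efficiency, so signals are compared between turns and not between genes or probes. Markers of cell types were looked up. The list of hair cell structure and function genes had 28 of its 29 genes among the probes, and each of the 28 was measured above background in 1 or more whole turns. The same held for 16514 of all 19505 genes, so this does not check the tissue label. Spiral ganglion neuron, supporting cell, glial, strial, fibrocyte, bone, blood and endothelial markers were also measured.

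Of the 7 genes, 5 were higher in the apical than in the basal turn at an adjusted p under 0.05 and none was lower, by limma's moderated test with adjustment over all 19505 genes. Among all genes 39.2% passed this test, 17.6% with more signal at the apex and 21.6% with more at the base. Sox2 and Pou4f3 differed by more than 2-fold, Gfi1 by less, and Lhx3 and Eya1 by a small margin, while Barhl1 and Atoh1 did not pass. Between the middle and basal turns 4 of the 7 passed, again all higher toward the apex, beside 20.9% of all genes (11.7% higher in the middle and 9.21% in the basal turn). Between the apical and middle turns 0 of the 7 passed in limma, beside 12% of all genes (4.42% higher in the apical and 7.59% in the middle turn), although Gfi1 and Eya1 had an unadjusted p of 0.0471 and 0.0223. The background between neighbouring turns is not firm: the count behind the 12%, 2343 genes, ran from 965 (without the second apical array) to 3539 (without the third middle array) and was 7275 with spike-in scaling, and that between middle and basal turns, 4071, fell to 2659 without the second basal array. In these bulk samples fewer cells of a type and less RNA per cell cannot be told apart.

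**Figure D1:**
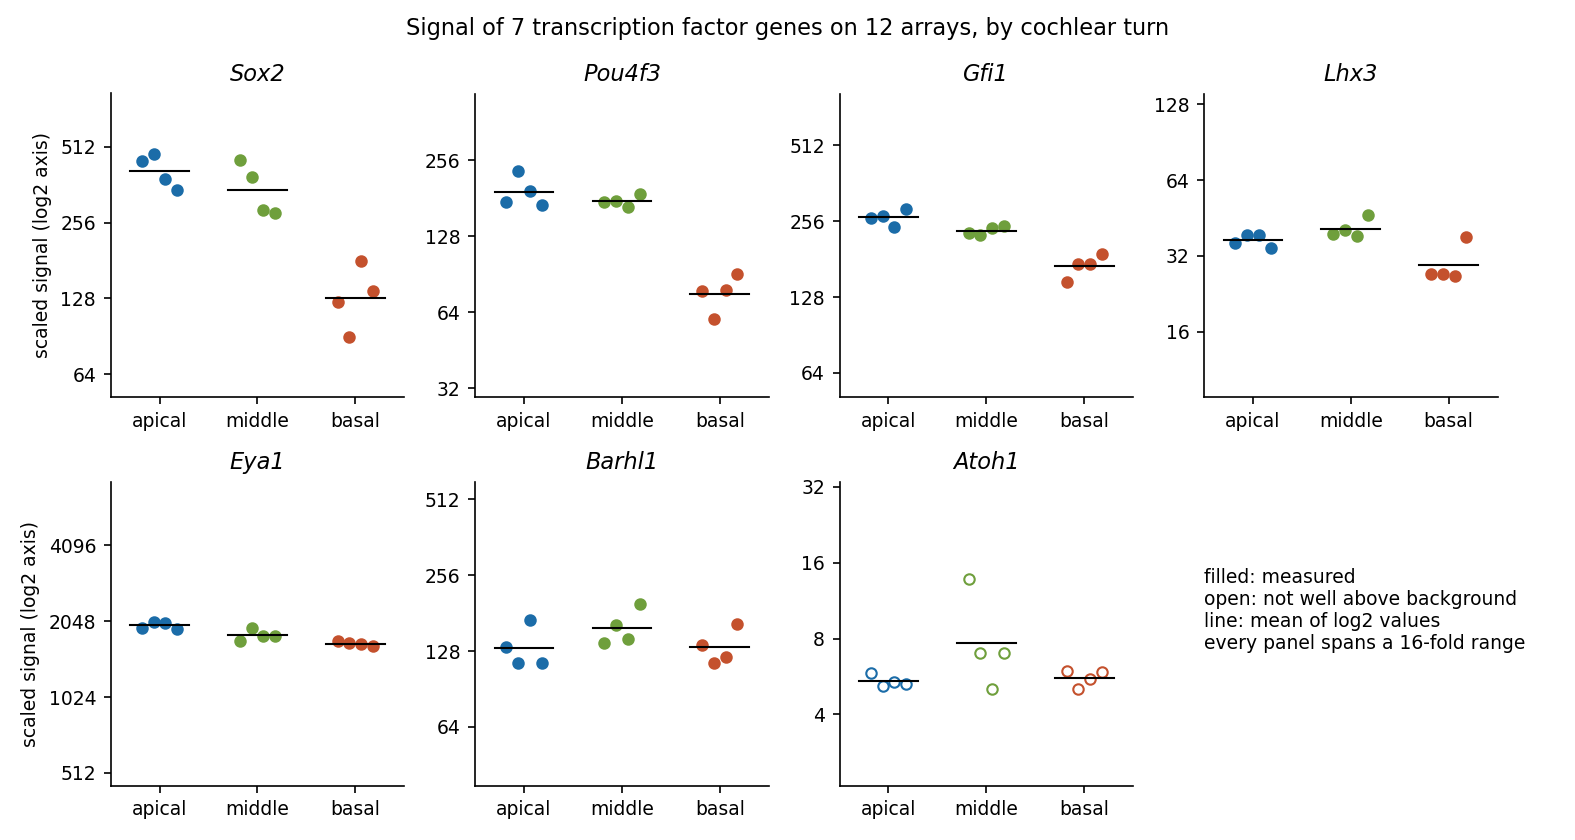
Scaled signal of each of the 7 genes (vertical axis, log2, every panel spanning a 16-fold range) on the 4 arrays of each turn, with a line at the mean of the log2 values. Sox2 and Pou4f3 in the basal turn lie below every apical and middle array, while Atoh1, in open circles, was not well above background on any array.

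Pou4f3, the POU domain factor that hair cells need to survive, is read by 2 probes on chromosome 18. Its signal was 176, 232, 194 and 170 on the apical arrays, 176, 176, 167 and 188 on the middle arrays, and 77.8, 60.1, 78.2 and 90.9 on the basal arrays. No basal array reached the lowest apical or middle value, and the apical and middle arrays overlapped in part, with 2 apical arrays above every middle array. The apical turn exceeded the basal turn by 1.34 ± 0.12 (log2, SE, n = 4 each), or 2.52-fold, with an adjusted p of 1.83e-05. The middle turn exceeded the basal turn by 1.22 ± 0.12 (adjusted p = 0.000126), and the apical turn exceeded the middle turn by 0.12 with a 95% interval of -0.16 to 0.39. On the log2 scale the middle turn thus lay 91.2% of the way from base to apex. A contrast of both steps, apical minus 2 times middle plus basal, came to -1.10 ± 0.22 with an adjusted p of 0.0288 for Pou4f3, and no other of the 7 genes passed it, beside 2.01% of all genes. That call is not firm, since it was lost with the sample number as a replicate block (adjusted p = 0.0651) and leaving out single arrays moved its adjusted p between 0.0166 and 0.0929 and took it past the threshold in 6 of 12 cases.

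Both Pou4f3 probes showed the difference. The probe starting at base 89 of the transcript gave 147 ± 17.4 (SD, n = 4) in the apical, 145 ± 15.8 in the middle and 69.1 ± 8.1 in the basal turn, a log2 difference between the ends of 1.09 ± 0.11. The probe starting at base 829 gave 253 ± 43.1, 217 ± 15.7 and 85.7 ± 18.8, a difference of 1.58 ± 0.17. For each probe all 4 apical and all 4 middle arrays lay above all 4 basal arrays.

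Sox2, the SRY-box factor of sensory progenitors and supporting cells, is read by 1 probe printed at 2 spots, which starts at base 1846 of its transcript (chr3:34550773-34550832, plus strand, build mm9). Its signal was 449, 479, 380 and 346 on the apical arrays, 453, 387, 288 and 280 on the middle arrays, and 124, 90.2, 181 and 137 on the basal arrays. The basal arrays again stood apart from both other turns, and the spread within the middle and basal turns was wider than for Pou4f3. The apical turn exceeded the basal turn by 1.67 ± 0.21 (adjusted p = 0.000152), or 3.18-fold, the largest difference between these turns among the 7 genes. The middle turn exceeded the basal turn by 1.42 ± 0.21 (adjusted p = 0.00146), and the apical turn exceeded the middle turn by 0.25 with an interval of -0.22 to 0.72. In RefSeq's GRCm38.p6 annotation Sox2 lies inside the noncoding gene Sox2ot, and RNA of that gene was not separated from Sox2 here.

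Under the study's own kind of rule, an F test over the 3 turns with an adjusted p under 0.05 and at least 2-fold between turns, Sox2 and Pou4f3 passed and the other 5 genes did not, beside 4.69% of all genes. All arrays of the apical turn lay above all arrays of the basal turn for Pou4f3, Gfi1, Sox2 and Eya1, 4 of the 7 genes, beside 16.9% of all genes. The middle turn lay wholly above the basal turn for these 4 and for Lhx3, beside 12.5% of all genes. For Eya1 and Lhx3 this was nearly a tie, with lowest middle values of 1704 and 38.4 against highest basal values of 1703 and 38.2. The apical turn lay wholly above the middle turn for 0 of the 7, beside 7.31%.

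Gfi1, the zinc finger repressor that acts downstream of Pou4f3 in hair cells, had a gene signal of 264, 268, 243 and 287 on the apical arrays, 229, 225, 240 and 246 on the middle arrays, and 147, 174, 174 and 189 on the basal arrays. Every basal array was below every other array. The apical turn exceeded the basal turn by 0.64 ± 0.08 (adjusted p = 0.000112), or 1.56-fold, and the middle turn exceeded the basal turn by 0.47 ± 0.08 (adjusted p = 0.00274). These gene values average 7 probes on chromosome 5 that did not behave alike. Probe sequences of Gfi1 are shown as printed on the array, in transcript order, because the first pair and the last of them differ in what they read along the cochlea. Capitals mark the codons of the second cysteine and of both histidines of a C2H2 zinc finger.
Gfi1 probe at base 743: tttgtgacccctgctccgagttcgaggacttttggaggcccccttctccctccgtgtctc
Gfi1 probe at base 1372: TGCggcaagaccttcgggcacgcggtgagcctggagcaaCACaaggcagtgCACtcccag
Gfi1 probe at base 1534: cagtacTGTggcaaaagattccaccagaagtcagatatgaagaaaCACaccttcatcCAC
They lie at chr5:108152246-108152305, chr5:108150139-108150198 and chr5:108149133-108149192 of mm9, on the minus strand, and each is open in a reading frame over its whole length.

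The difference rested on the end of the Gfi1 transcript. The probe nearest the 3′ end, starting at base 2757 (chr5:108145719-108145778), read 1195, 1237, 1119 and 1233 on the apical arrays, 1038, 964, 1046 and 1010 on the middle arrays, and 348, 280, 431 and 313 on the basal arrays. This is a log2 difference between apical and basal turns of 1.82 ± 0.11 (adjusted p = 2.56e-06), and the middle turn exceeded the basal turn by 1.58 (adjusted p = 3.61e-05). The probe at base 1534 was well above background on all 4 apical arrays, 3 of the 4 middle arrays and no basal array, and read 53.7 ± 8.0 (SD, n = 4) in the apical turn. Set against the lowest signal of any probe well above background on each basal array, or its own value where higher, its apical signal was 3.38-fold higher. That is no lower bound, since this probe read 30.3 on the fourth basal array and still was not well above background. The limma test used the log2 difference without this floor, 1.79 (adjusted p = 0.00503), from basal values that were not well above background.

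The other 5 Gfi1 probes did not pass the test between the ends of the cochlea. The probe at base 743, in the coding region before the zinc fingers, read 13407, 13773, 12275 and 13478 on the apical arrays and 13024, 13842, 11934 and 12002 on the basal arrays, which overlap (log2 difference 0.06 ± 0.07, adjusted p = 0.558). The probe at base 1372, in a zinc finger, read 179 ± 22.3 (SD, n = 4) in the apical and 147 ± 23.0 in the basal turn, a difference of 0.28 ± 0.13 (adjusted p = 0.121). The probes at bases 865 and 1234 gave differences of 0.26 and 0.04, and the one at base 506 was above background on only 4 of the 12 arrays. Without the 4 probes whose mean signal lay over 4-fold from the gene's median, the Gfi1 difference was 0.19 with an adjusted p of 0.0890, a setting added after the data were seen. Both called probes, at bases 1534 and 2757, were among those left out, as was the probe at base 743. Only uncalled probes remained, so this setting cannot decide whether the call holds. The gene call was also lost with the median of the probes (0.28, adjusted p = 0.121) and with their mean on the linear scale (0.15, adjusted p = 0.0615).

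**Figure D2:**
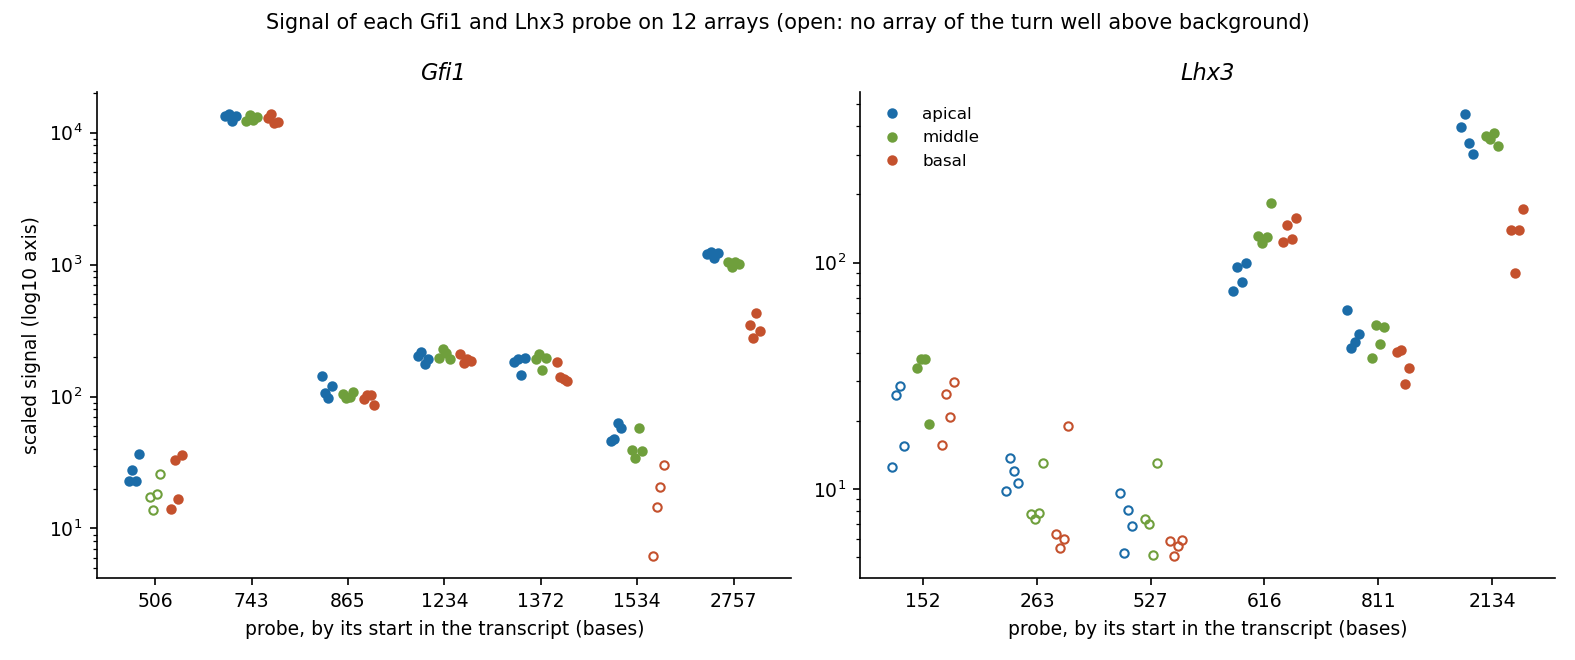
Scaled signal (vertical axis, log10) of each Gfi1 and Lhx3 probe on the 12 arrays, with probes in the order of their start in the transcript (horizontal axis, bases) and turns by color; open circles mark turns in which no array was well above background. For both genes the last probe falls in the basal turn, and the Gfi1 probe at base 743 stays between 11934 and 13842 on all arrays.

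Lhx3, a LIM homeodomain factor made in hair cells, is read by 6 probes on chromosome 2, of which 2 were well above background on all 12 arrays. Its gene signal was 36.1, 38.8, 38.9 and 34.3 on the apical arrays, 39.0, 40.4, 38.4 and 46.6 on the middle arrays, and 27.2, 27.1, 26.7 and 38.2 on the basal arrays. The fourth basal array sat among the apical arrays, and the other 3 lay below all of them. Part of that high value came from the probe at base 263, which was not well above background on any array. This probe read 19.0 on the fourth basal array against 5.51 to 6.33 on the other 3. The apical turn exceeded the basal turn by 0.33 ± 0.11 (adjusted p = 0.0395) and the middle turn exceeded the basal turn by 0.48 ± 0.11 (adjusted p = 0.0137). The call between middle and basal turns was lost with quantile normalization (0.33, adjusted p = 0.0730) and with spike-in scaling (0.24, adjusted p = 0.132). The call between apex and base is not firm, since it was lost with the median of the probes (0.12, adjusted p = 0.592) and with quantile normalization (0.15, adjusted p = 0.350). It was lost too with scaling to the median (0.21, adjusted p = 0.155) and with normexp background correction (0.13, adjusted p = 0.147). Leaving out single arrays moved its difference between 0.28 and 0.45 and its adjusted p between 0.00136 and 0.104, the largest difference coming without the fourth basal array.

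Lhx3 probes disagreed in direction. The probe nearest the 3′ end, starting at base 2134 (chr2:26055746-26055805), read 398, 453, 338 and 303 on the apical arrays, 362, 351, 373 and 327 on the middle arrays, and 139, 89.7, 140 and 172 on the basal arrays, with no overlap between the basal and other turns. Its apical turn exceeded the basal turn by 1.49 ± 0.18 (adjusted p = 0.000193). The 2 upstream probes that also passed lie in and just after the homeodomain, the DNA-binding domain of Lhx3, and their sequences are given because they went opposite ways.
Lhx3 probe at base 616: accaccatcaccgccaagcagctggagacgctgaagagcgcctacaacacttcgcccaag
Lhx3 probe at base 811: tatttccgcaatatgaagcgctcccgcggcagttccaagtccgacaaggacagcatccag
They lie at chr2:26057933-26057992 and chr2:26057651-26057710 of mm9, on the minus strand. The homeodomain probe read 75.3, 95.8, 82.1 and 99.4 on the apical arrays and 123, 147, 127 and 157 on the basal arrays, so that the basal turn was the higher one (log2 difference -0.65 ± 0.14, adjusted p = 0.00507). It was also lower in the apical than in the middle turn (-0.67, adjusted p = 0.0238), whereas the middle and basal turns differed by 0.02 (adjusted p = 0.946). The probe at base 811 read 49.2 ± 8.7 (SD, n = 4) in the apical and 36.2 ± 5.7 in the basal turn (0.44 ± 0.16, adjusted p = 0.0492), a call that leaving out single arrays ended in 8 of 12 cases (adjusted p up to 0.132) and the replicate block ended too (adjusted p = 0.0684). The remaining 3 Lhx3 probes, at bases 152, 263 and 527, were not well above background in the apical or the basal turn.

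Eya1, a transcriptional coactivator and phosphatase, is read by 15 probes on chromosome 1, all well above background on all 12 arrays. Its gene signal was 1924, 2040, 2015 and 1907 on the apical arrays, 1704, 1928, 1794 and 1791 on the middle arrays, and 1703, 1680, 1658 and 1630 on the basal arrays. The apical arrays lay above all basal arrays by a narrow margin. The apical turn exceeded the basal turn by 0.24 ± 0.05 (adjusted p = 0.00239), or 1.18-fold, and neither neighbouring pair of turns passed (0.13 and 0.11, adjusted p = 0.102 and 0.127). Unlike Pou4f3, the middle turn of Eya1 lay 46.5% of the way from base to apex, with a contrast of both steps of 0.02 ± 0.08.

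Of the 15 Eya1 probes, 7 were higher in the apical turn and 0 higher in the basal turn, with differences from -0.16 to 0.61. Over all 7 genes 14 probes were higher in the apical and 1 in the basal turn, beside 18% and 16.4% of all probes (34.4% in either direction). The 5 called Eya1 probes that start from base 1089 to base 1673 had the largest differences, 0.38 to 0.61, but the probe at base 1496 inside that stretch did not differ by a measurable amount. Its sequence is set beside that of its neighbor at base 1583, which falls at the start of the Eya domain, the phosphatase domain of the protein.
Eya1 probe at base 1496: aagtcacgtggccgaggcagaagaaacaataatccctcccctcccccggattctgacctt
Eya1 probe at base 1583: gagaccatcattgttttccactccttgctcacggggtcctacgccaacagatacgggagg
They lie at chr1:14221497-14221556 and chr1:14219574-14219633 of mm9, on the minus strand. At base 1583 the apical arrays read 2358, 2636, 2568 and 2402 and the basal arrays 1634, 1624, 1594 and 1648 (0.61 ± 0.08, adjusted p = 0.000205). At base 1496 they read 5545, 5485, 5592 and 5422 against 5529, 5685, 5844 and 5078, which overlap (adjusted p = 0.969). The probe nearest the 3′ end, at base 3327, read 47061 ± 9180 (SD, n = 4) in the apical and 52162 ± 6455 in the basal turn (-0.16 ± 0.14, adjusted p = 0.419), and 34 of its 60 bases are a run of alternating T and G. The Eya1 difference reversed to -0.03 when probes were averaged on the linear scale, where that probe weighs most (adjusted p = 0.839).

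**Figure D3:**
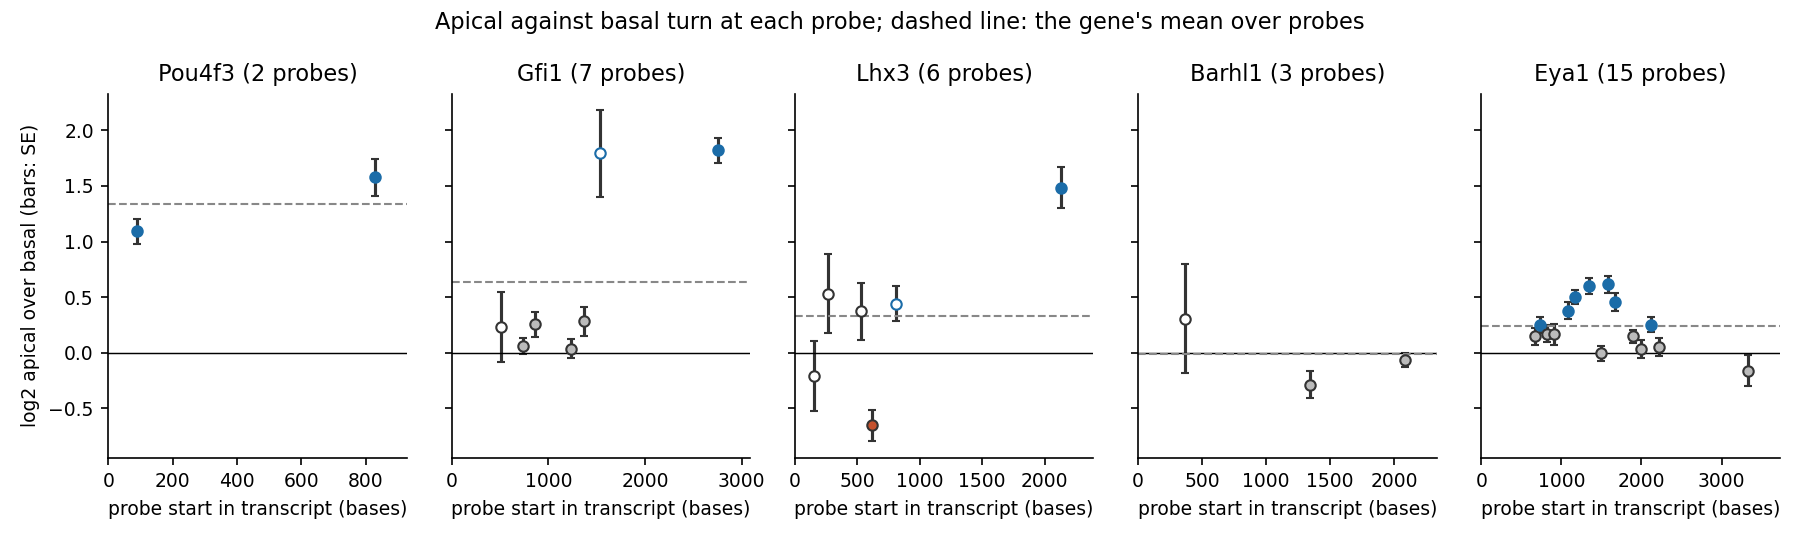
Log2 difference between apical and basal turns (vertical axis, bars show SE) for each probe against its start in the transcript in bases, for the 5 genes with more than 1 probe. Blue marks probes higher in the apical turn and red the probe higher in the basal turn at an adjusted p under 0.05, grey marks no call, white marks probes not above background on all 12 arrays, and the last Gfi1 and Lhx3 probes stand at 1.82 and 1.49.

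Barhl1, a homeodomain factor that hair cells need for long-term survival, did not pass the test between any pair of turns as a gene. Its gene signal was 133, 115, 170 and 114 on the apical arrays, 138, 163, 143 and 196 on the middle arrays, and 136, 115, 121 and 164 on the basal arrays, which overlap throughout. The difference between apical and basal turns was -0.01 ± 0.16 (adjusted p = 0.960) with an interval of -0.36 to 0.34, which leaves out a 2-fold change. One of its 3 probes was not above background on any array, and with only bright probes the gene difference was -0.17 (adjusted p = 0.0863). The other 2 read 352 ± 40.5 and 737 ± 39.0 (SD, n = 4) in the apical turn and 430 ± 64.4 and 770 ± 39.8 in the basal turn, with differences of -0.28 ± 0.12 (adjusted p = 0.0881) and -0.06 ± 0.06 (adjusted p = 0.494). The first of these had an unadjusted interval of -0.55 to -0.023, and it passed as higher in the base with scaling to the median (-0.40, adjusted p = 0.0243), with spike-in scaling (-0.71, adjusted p = 0.000315) and with the replicate block (adjusted p = 0.0375). It lies in the homeodomain (chr2:28766891-28766950, minus strand, mm9), and its sequence is shown as the Barhl1 probe nearest to a call.
Barhl1 probe at base 1342: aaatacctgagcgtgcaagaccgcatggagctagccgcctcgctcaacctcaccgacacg
The other starts at base 2080, and it too overlapped between all 3 turns.

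Atoh1, the factor that starts hair cell differentiation, was not well above background on any of the 12 arrays. Its single probe, starting at base 2021 of the transcript (chr6:64681161-64681220), read between 5.05 and 13.8, and no difference between turns is given. With 1 probe, this says only that no Atoh1 signal was measured at this position in the adult tissue.

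The direction of the small differences depended on how the arrays were scaled. Scaling to the spike-in control probes moved the median of all genes between apical and basal turns from -0.04 to -0.46. Pou4f3 and Sox2 stayed higher in the apical turn at 0.91 and 1.24, Gfi1 fell short of the threshold at 0.22 (adjusted p = 0.0984), Lhx3 and Eya1 flipped to -0.10 and -0.18 without passing, and Barhl1 was then higher in the base at -0.44 (adjusted p = 0.0250). The 5 genes that were higher in the apex lay above the median gene and Barhl1 lay next to it, as they did before. Their places could not change, since this scaling shifts all genes of an array by the same log2 amount.

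The 28 hair cell genes gave a scale for these differences in the same RNA. Of them 26 were higher in the apical turn and 0 in the basal turn, with a median log2 difference of 1.36, against -0.04 over all genes. Slc26a5, the outer hair cell motor prestin, had the largest difference at 2.94, with signals of 347 ± 57.2 and 46.5 ± 12.7 (SD, n = 4) in the apical and basal turns. The next in order were Ptprq at 1.99, Grxcr1 at 1.97, Ocm (the outer hair cell calcium buffer oncomodulin) at 1.92, Strc (stereocilin) at 1.87, the nicotinic receptor subunits Chrna10 at 1.85 and Chrna9 at 1.78, and Calb2 at 1.72. Myo6 and Tmc2 did not pass, at -0.11 and -0.04.

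The mean of the 28 genes on the log2 scale fell by 1.22 from apex to base, by 0.30 from apex to middle and by 0.92 from middle to base. Subtracting this mean on each array, Pou4f3 differed from it by 0.11 with an interval of -0.14 to 0.36 (adjusted p = 0.365), so that no excess or shortfall was detected for Pou4f3 (with the mean linear signal of the probes the difference was 0.35, adjusted p = 0.00746, and with the probe nearest the 3′ end 0.31, adjusted p = 0.0494). Sox2 fell more steeply than the hair cell mean, by 0.45 ± 0.17 (adjusted p = 0.0221), although leaving out single arrays moved that p between 0.00903 and 0.0616, past the threshold in 4 of 12 cases. Gfi1 at -0.58, Lhx3 at -0.90, Eya1 at -0.98 and Barhl1 at -1.24 changed less than the mean (adjusted p from 2.51e-06 to 0.00129). Of all genes 95.3% passed this test and 94.7% lay below the hair cell mean, so those 4 calls do not set the genes apart. With the probe nearest the 3′ end alone, a setting added after the data were seen, Gfi1 and Lhx3 turned to 0.55 and 0.21 above the hair cell mean. Over the alternatives other than single arrays left out, the limma adjusted p of this comparison reached 0.163 for Lhx3 and 0.00418 for Gfi1.

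**Figure D4:**
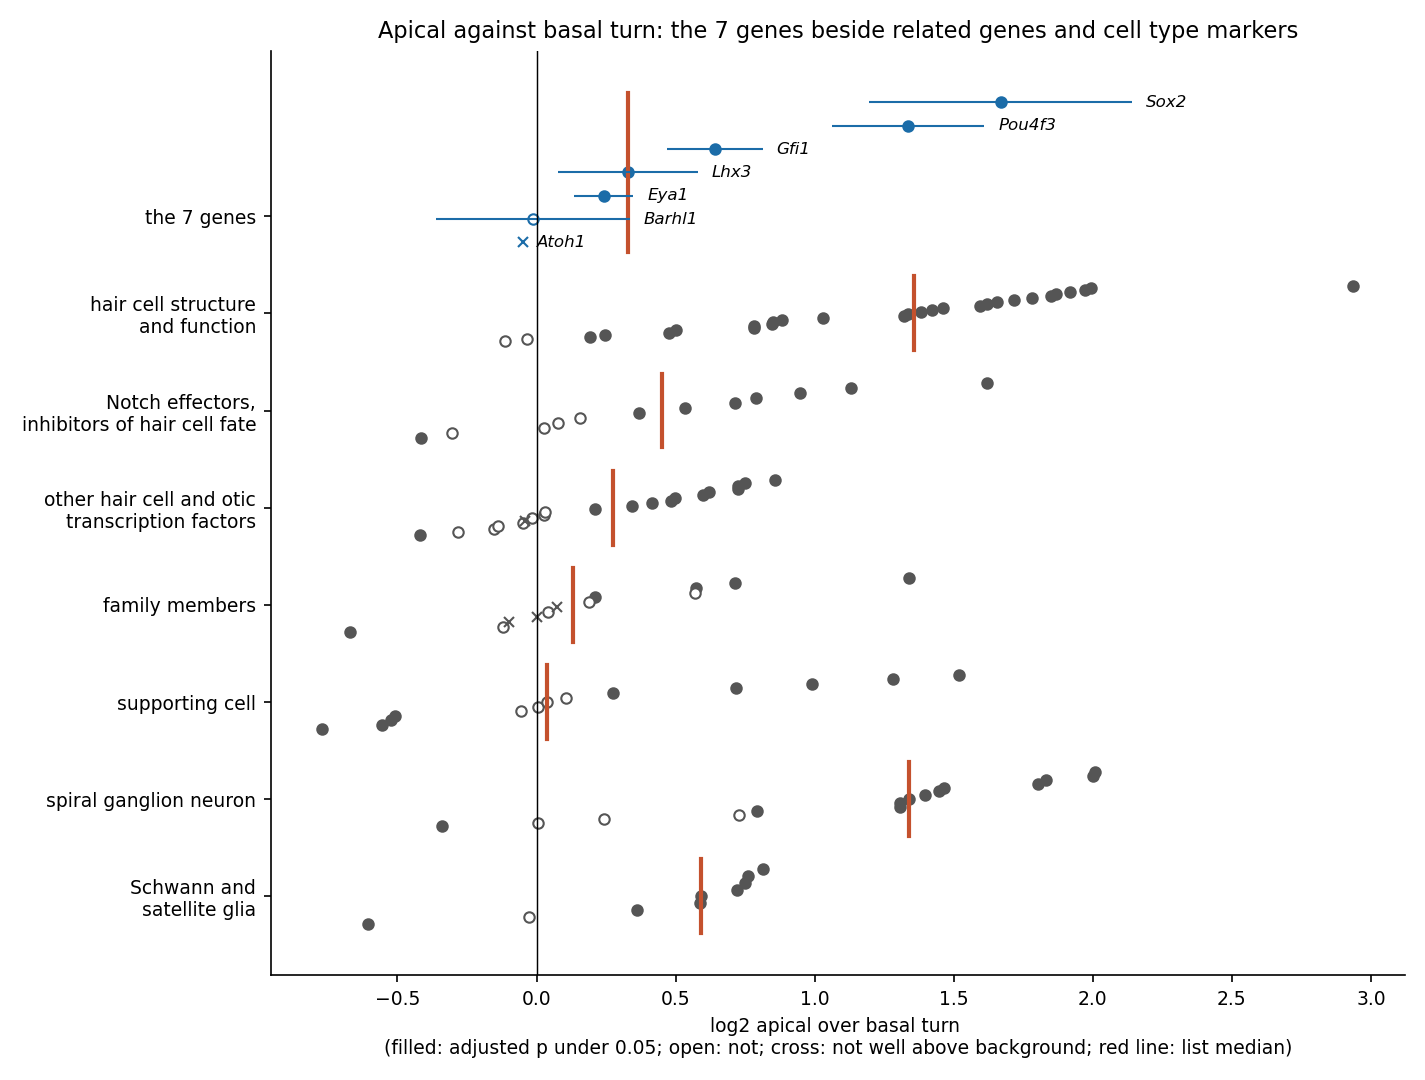
Log2 difference between apical and basal turns (horizontal axis) of the 7 genes, with 95% intervals, beside lists of related genes and cell type markers; filled points have an adjusted p under 0.05, open points do not, crosses were not well above background and red lines mark list medians. Sox2 at 1.67 and Pou4f3 at 1.34 fall within the spread of the hair cell list, whose median is 1.36, while the other transcription factor lists have medians of 0.13 to 0.45.

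Other genes of the same families were mixed. Of 12 such genes, 4 were higher in the apical turn and 1 in the basal turn, with a median of 0.13. Pou4f1, the relative of Pou4f3 in spiral ganglion neurons, differed by 1.34 ± 0.34 (adjusted p = 0.00936) with signals of 67.0 ± 19.0 and 28.1 ± 13.4 (SD, n = 4) in the apical and basal turns. Within the Eya family, Eya4 was higher in the apex by 0.71 ± 0.05 (adjusted p = 2.09e-06) and Eya3 by 0.21 ± 0.05 (adjusted p = 0.00456), whereas Eya2 was higher in the base (-0.67 ± 0.06, adjusted p = 1.28e-05). Eya1, at 0.24, thus stood between Eya4 and Eya2. Atoh8, a relative of Atoh1, was higher in the apex by 0.57. Gfi1b, Lhx4, Pou4f2 and Sox1 did not pass, and Atoh7, Barhl2 and Sox3 were not well above background.

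Among 20 other transcription factors of hair cells and the otic epithelium, 11 were higher in the apical turn and 1, Hes6, in the basal turn (-0.42), with a median of 0.28. The 8 with the largest differences were the nuclear receptors Nr2f2 (0.86) and Nr2f1 (0.73), Rfx3 (0.75), Six4 (0.72), Six2 (0.62), Gata3 (0.60), Ikzf2 (0.50) and Dach2 (0.49). Insm1 was not well above background.

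Sox2 was accompanied by several genes that hold back the hair cell fate. Of 12 Notch effectors and inhibitors, 7 were higher in the apical turn and 1, Sox9, in the basal turn (-0.42 ± 0.07, adjusted p = 0.000770), with a median of 0.45. The largest differences were those of Prox1 (1.62 ± 0.35, adjusted p = 0.00345), known from supporting cells, and of Sox21 (1.13 ± 0.11, adjusted p = 2.59e-05). Hey1 (0.95), Id4 (0.79), Id1 (0.71), Hey2 (0.53) and Id2 (0.37) followed. Hes1, Hes5, Heyl and Id3 did not pass.

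Markers of other cell types moved along the cochlea as well, and their part in the results for the 7 genes was not tested. Of 15 spiral ganglion neuron genes 11 were higher in the apical turn and 1 in the basal turn, led by Nefh (2.01), Nefm (2.00) and Scn1a (1.83), with the summed signal at 34295 to 44056 in the apical, 31638 to 54597 in the middle and 9525 to 30643 in the basal turn. Of 9 Schwann and satellite glia genes 7 were higher in the apex, among them Mag (0.75), and 1, S100b, in the base, with summed signals of 219568 to 251361 in the apical and 332842 to 361309 in the basal turn. Of 13 supporting cell genes 5 had more signal at the apex and 4 at the base. Ngfr (1.52), Otog (1.28) and Jag1 (0.99) differed most, and the summed signal was 193071 to 218210 in the apical and 282984 to 331025 in the basal turn, most of it from the connexins Gjb2 and Gjb6.

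Lateral wall markers went the other way. Of 6 fibrocyte genes 6 were higher in the base, led by Otos (-1.28), Slc4a11 (-0.92) and Coch (-0.57), with summed signals of 283670 to 308010 in the apical and 556089 to 619299 in the basal turn. Of 7 melanocyte and strial intermediate cell genes 6 were higher in the base (Slc45a2, Mlana and Tyr at -1.05, -1.04 and -0.82), and of 5 marginal cell genes 3 (Kcnq1, Atp1b2 and Esrrb at -0.55, -0.45 and -0.31). The summed signals of these lists were 37927 to 44412 and 9262 to 10893 in the apical turn, against 59155 to 79875 and 11119 to 12886 in the basal turn. Bone (1 higher in the apex, 1 in the base, of 7), blood and bone marrow (2 and 0 of 12) and endothelial genes (2 and 3 of 6) had summed signals that overlapped between apical and basal turns, at 1253 to 4214 against 2268 to 2713, 37338 to 96712 against 30578 to 77802, and 8805 to 11989 against 10133 to 11694. The blood and bone marrow list nevertheless had a median difference of 1.15, and without the third apical array 8 of its 12 genes were higher in the apex. The fourth apical array read highest for its granulocyte genes, with S100a8 at 11776 against 202 to 4907 on the other apical arrays.

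Basal arrays were the least alike in hair cell signal, with an SD of the hair cell mean of 0.24 log2 units against 0.11 in the apical and 0.043 in the middle turn. The second basal array had the lowest Pou4f3 and Sox2 signals of all 12 arrays, 60.1 and 90.2, and also the lowest Slc26a5, 28.4, and Nefl, a neurofilament subunit of neurons, at 1835. The third basal array had the highest basal Sox2, 181, and the highest basal Nefl, 9098. Without the second basal array the apical turn still exceeded the basal turn by 1.22 for Pou4f3 and 1.50 for Sox2, and both remained past the threshold.

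Genes with the most similar profile over the 12 arrays were ranked by Pearson r of log2 signal among 16513 measured genes, as a description only, since arrays share turn and slide. For Pou4f3 they were Myo7a (r = 0.987), the myosin VIIa motor of hair cells, Fcrlb, Pcp4, Grxcr2 and Fam81a. For Sox2 they were Phtf1 (0.984), Tubgcp5, Parp1, Elmod1 and Homer2, and for Gfi1 Mgst1 (0.984), Foxd2, Fhl2, Emilin2 and Cst6. Lhx3 ran closest to Agbl3 (0.958), Fbxo27, Glra4, Lck and Nek3. Barhl1 ran closest to Col7a1 (0.939), Slc34a2, Gp2, Prss43 and Zfp606, and Eya1 to AW554918 (0.960), Zfp781, Atad5, Cbfa2t2 and Fam13c.

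With the hair cell mean, r over the 12 arrays was 0.97 for Pou4f3, 0.96 for Sox2, 0.90 for Gfi1, 0.84 for Eya1, 0.71 for Lhx3 and 0.19 for Barhl1. After the mean of each turn was removed, r was 0.76 for Pou4f3 and 0.65 for Sox2 but -0.11 for Gfi1, 0.07 for Eya1, 0.32 for Lhx3 and 0.36 for Barhl1. With turn means removed, Pou4f3 and Sox2 were thus high on the arrays where hair cell genes were high, over arrays that also differ in hybridization. These r pool all turns, and the hair cell mean spread most among basal arrays (SD 0.24, against 0.11 apical and 0.043 middle). Single turns were not examined. The median r of the deviations with the hair cell genes was 0.61 for Pou4f3 and 0.45 for Sox2. Of all measured genes, 97.3% had a lower r with Pou4f3 and 85.5% a lower r with Sox2. The genes closest to each by these deviations were Trim58, Cnga3, Zfp408, Mrgprg and Gm5148 for Pou4f3 (r = 0.895 for the first), Hace1, Tmcc2, Capn2, Lypd6b and Gphn for Sox2 (0.930) and Lias, Mrpl27, Eef1g, Mrpl2 and Ap1s1 for Gfi1 (0.956). For Lhx3 they were Vars2 (0.945), Zfp609, Col17a1, Hip1r and Glra4, for Barhl1 Col7a1 (0.965), Eya3, Gp2, Krt5 and Mamdc4, and for Eya1 Bms1 (0.945), Sorbs2, Sox18, Crtc3 and Nnt.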

How the data were processed

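Total RNA of 3 cochlear turns was labeled from 25 ng per sample and hybridized to 12 single-color exon arrays, 4 per turn. The authors deposited the fluorescence intensity of each spot, extracted from scanned images with Agilent Feature Extraction 10.7.3.1, which had subtracted background without normalizing between arrays; the value table of the series held this same signal at every spot, so no separate values came from it. Probe positions refer to mm9. Of 180880 spots per array 7914 controls and flagged spots were left out, leaving 165865 of 165984 probes. Signals were scaled to the 75th percentile of each array (before scaling 534 to 722, brought to 641) and log2 transformed, and repeated spots and then probes of a gene name were averaged, with no pseudocount or filter. Turns were compared with limma 3.58.1 in R 4.3.3 (data read with the data.table package, version 1.17.8) on the 12 arrays together, and p-values were adjusted by the Benjamini-Hochberg method across 19505 genes or across probes. The labels number the samples; p-values measure the spread between these samples.

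Genes and lists were chosen with earlier results of these data known. Besides the 7 genes, the text names up to 8 called genes of largest difference per transcription factor or hair cell list, up to 3 per cell type list and the 5 most similar profiles; genes outside this rule were chosen after their values were seen. Alternatives covered normalization, background correction, dim and flagged probes, the gene summary, the variance model, the replicate number and each array left out. Scripts were tested on simulated data. A few genes of these lists are not reported here by name.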

Additional observations from a re-analysis of the deposited data

Results flagged for a closer look

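In 99 groups of 4 arrays (the measured genes and probes in each turn), 3 had an array whose distance from the rest passed Dixon's 95% limit, where chance alone flags about 1 group in 20. The fourth basal array stood high for Lhx3, at 38.2 against 26.7 to 27.2 on the other basal arrays. Part of this came from the Lhx3 probe at base 263, which was not well above background on any array. The fourth middle array stood high for the Barhl1 probe at base 2080 (A_51_P183971), at 815 against 745 to 755. The third middle array stood low for the Eya1 probe at base 2119 (A_56_P075274), at 523 against 586 to 597.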

How the results depend on the processing

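Pou4f3 and Sox2 were higher in the apical than in the basal turn under every alternative run, by 0.82 to 1.58 and by 1.24 to 1.83 on the log2 scale. The count of the 7 genes past the threshold between these turns, 5, became 3 with scaling to the median and with spike-in scaling. With spike-in scaling these were Pou4f3 and Sox2, higher in the apex, and Barhl1, higher in the base. In that setting 14321 of all 19505 genes passed, in either direction. The count also became 3 with the median of the probes and the log2 of the mean linear signal. It was 3 too with probes over 4-fold from their gene's median left out, and 4 to 5 with single arrays left out. The use of the 3′ probe alone and the removal of such outlying probes were added after the data were seen. Between apical and middle turns the count of 0 became 1 with quantile normalization (Eya1, higher in the apex) and 3 with spike-in scaling. Of these 3, Lhx3 (-0.34, adjusted p = 0.0426) and Barhl1 (-0.46, adjusted p = 0.0390) were lower in the apical turn. The remaining call was Atoh1, which was not well above background on any array. With single arrays left out the count was 0 to 1, 1 coming without the third middle array. Between middle and basal turns the count of 4 became 2 with spike-in scaling, the median of the probes and the outlying probes left out. The count for the F test with 2-fold, 2, became 1 with spike-in scaling and normexp background correction and 4 with the 3′ probe alone. The count for uneven steps, 1, became 0 with spike-in scaling and unmoderated tests, 3 with only bright probes and 2 with the mean linear signal, and ran from 0 to 2 with single arrays left out. The causes were not tested.

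Directions turned as follows, with the cause not tested. With spike-in scaling, which moved the median of all genes, the difference between apical and basal turns was -0.10 for Lhx3, -0.18 for Eya1, -0.36 for the Gfi1 probe at base 743 (A_56_P065112; -0.056 with scaling to the median) and -0.18, -0.044 and -0.17 for the Eya1 probes at bases 733, 1089 and 2119. The apical minus middle difference was then -0.071 for Pou4f3, -0.014 for Gfi1 and -0.060 for Eya1, and the middle minus basal difference -0.12 for Eya1. Quantile normalization gave 0.065 for the Eya1 probe at base 3327. Barhl1 between middle and basal turns turned to -0.12 with only bright probes, -0.23 with the median of the probes, -0.073 with the mean linear signal, -0.0062 with the 3′ probe and -0.12 without outlying probes. The median of the probes gave -0.077 for Gfi1 between apical and middle turns, and the mean linear signal gave -0.028 for Eya1 between apical and basal and -0.17 between middle and basal turns. The 3′ probe alone gave -0.16 and -0.33 for these Eya1 differences, 0.062 for Lhx3 between apical and middle turns, and 0.55 for Gfi1 and 0.21 for Lhx3 relative to the hair cell mean. Barhl1 between apical and basal turns ran from -0.14 to 0.090 with single arrays left out.

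Deviations from the turn means correlated weakly between arrays with the same sample number (mean r 0.09, from -0.037 to 0.23 over 12 pairs, against a mean of -0.03 over 36 other pairs). Of the 12 arrays 8 were closest to an array of their own number, although only 12 pairs shared a number and 36 did not. The labels tie no number to a mouse. What arrays of the same number share was not tested. With the sample number as a replicate block the counts were 5, 0, 4 and 2 for the turns and the F test, and 0 for uneven steps, where Pou4f3 had an adjusted p of 0.0651. Other calls of the 7 genes did not change with it, while the Barhl1 probe at base 1342 gained a call (adjusted p = 0.0375) and the Lhx3 probe at base 811 lost its call (adjusted p = 0.0684). The number of arrays limits the precision, and Atoh1 and 8 of the 35 probes were not above background on all arrays.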
